A study of Mus musculus with 16 samples.

Results

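Long intergenic non-coding RNAs (lincRNAs) are transcripts without a recognised coding frame from genes that lie between or beside protein-coding genes. Of the 2998 genes that the deposited table labels lincRNA, 286 reached at least 50 counts in at least 8 of the 16 libraries and are described here. They were selected on these counts among 43346 genes in all, so that they are measurable is a description and not a result. The rule also set aside RP23-285G23.2, Meg3 and H19, and 0 of these met it. Meg3 and H19 reached 50 counts in 5 libraries each, while RP23-285G23.2, with 50 counts in 15 libraries, carries another gene type in the table.

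RNA was sequenced from lung endothelial cells (ECs) of FVB mice, sorted per the study's methods as CD31-positive cells that lacked CD45, EpCAM and the Col1a1-GFP reporter that all the mice carried. At 2 months (young) or 18 months (aged), mice received bleomycin, a drug that injures the lung, or a sham treatment into the airways. The young mice gave 5 sham (Young Sham) and 4 bleomycin (Young Bleo) libraries and the aged mice 3 (Aged Sham) and 4 (Aged Bleo), and a library is named by its group and title number. The methods speak of individual mice and of both sexes, whereas Xist was at most 0.0222 FPKM and Y-linked genes were present in each of the 16 libraries. In bulk libraries, fewer cells of a type and less RNA per cell cannot be told apart.

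Some lincRNAs act in the nucleus, as do Malat1 and Neat1, which belong to nuclear speckles and paraspeckles. Others are known for what their transcripts carry. The Snhg genes host small nucleolar RNAs in their introns, and further lincRNAs host microRNAs. Still others are known beside a neighbour, such as Fendrr, which is transcribed away from the lung mesenchymal and endothelial transcription factor gene Foxf1, and Trp53cor1 (lincRNA-p21), a target of p53 beside the cell-cycle inhibitor gene Cdkn1a.

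MicroRNAs inside lincRNAs are shown because these sequences are what host genes are known for. RefSeq (GRCm38.p6) places 29 mature microRNAs within the bounds of 14 of the 286 lincRNAs, of which 14 mature microRNAs in 6 lincRNAs lie on the strand of the host. A330023F24Rik (chr1:194976375-195037904, mm10) holds miR-29b-2 and miR-29c, of a family known for its targets among collagen mRNAs. The seed, bases 2 to 8, is in capitals, and both 3p arms share it:

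miR-29b-3p: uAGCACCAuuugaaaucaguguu
miR-29c-3p: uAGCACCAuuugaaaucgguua
miR-29b-2-5p: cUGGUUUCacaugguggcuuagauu
miR-29c-5p: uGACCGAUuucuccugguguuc

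E130102H24Rik (chr4:101346531-101356735) holds miR-101a and 6720427I07Rik (chr13:48535523-48537822) holds let-7d, both on the strand of the host. Gm20603 (chr9:21028307-21032357), described with bleomycin below, spans miR-1900, and its own strand was not in the annotation used. No seed is shared among these:

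miR-101a-3p: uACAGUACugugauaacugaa
let-7d-5p: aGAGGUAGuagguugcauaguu
miR-1900: gGCCGCCCucucugguccuuca

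The libraries held 20907113 to 71035301 gene counts. The 286 lincRNAs took 0.584% to 1.16% of them, of which Malat1 took 0.108% to 0.321% and Yam1 0.150% to 0.462%. Between 194 (Young Sham 23, the shallowest library) and 278 (Aged Bleo 3, the deepest) of the 286 genes reached 50 counts in a library, and 150 did so in all 16. More bleomycin than sham libraries were at 50 counts for 102 genes and fewer for 30, and 0 genes had 50 counts in all 8 bleomycin libraries and at most 1 sham library. These are raw counts, which also move with depth. Endothelial markers (8 of 8 genes) were present in every library, and their summed FPKM was 2297 to 2527 in Young Sham, 1990 to 2152 in Aged Sham, 1472 to 1931 in Young Bleo and 1354 to 1979 in Aged Bleo. The 8 genes did not move alike, so the sum does not measure endothelial content. Raw counts of Kdr were 55881 to 163356 in Young Sham and 20057 to 91068 in Young Bleo. Those of Erg were 787 to 1411 and 1700 to 2400. Macrophage markers (9 of 10 genes found) summed to 22.4 to 43.0 FPKM in Young Sham, 51.5 to 181 in Aged Sham, 151 to 439 in Young Bleo and 208 to 1537 in Aged Bleo. Platelet markers (4 of 4 genes) summed to 3130 FPKM in Aged Sham 14 and to 59.6 to 891 in the other libraries. Epithelial markers (6 of 6 genes) summed to 62.0 to 566 FPKM in Young Sham and 147 to 536.5 in Young Bleo. In Aged Sham they summed to 135 to 647 FPKM and in Aged Bleo to 165 to 411.5. Mesothelial markers (4 of 4 genes) summed to 0.00405 to 1.18 FPKM in Young Sham and 4.96 to 15.3 in Young Bleo. In Aged Sham these were 2.72 to 12.35 and in Aged Bleo 0.506 to 5.50.

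Levels of the 286 lincRNAs separated most bleomycin libraries from the sham libraries. On the first principal component of log2(normalized count + 1), with 35% of the variance, Young Bleo 17, 18 and 19 and Aged Bleo 1 and 2 lay at 9.50 or above. All sham libraries of both ages lay between -8.70 and -4.08. Aged Bleo 3 was at -3.53, Aged Bleo 5 at -1.95 and Young Bleo 20 at 0.225, so 3 of the 8 bleomycin libraries were nearer the sham libraries. The macrophage marker sums of these 3 were 360, 208 and 151 FPKM, against 286 to 1537 in the other 5. Their part in the separation was not tested.

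**Figure D1:**
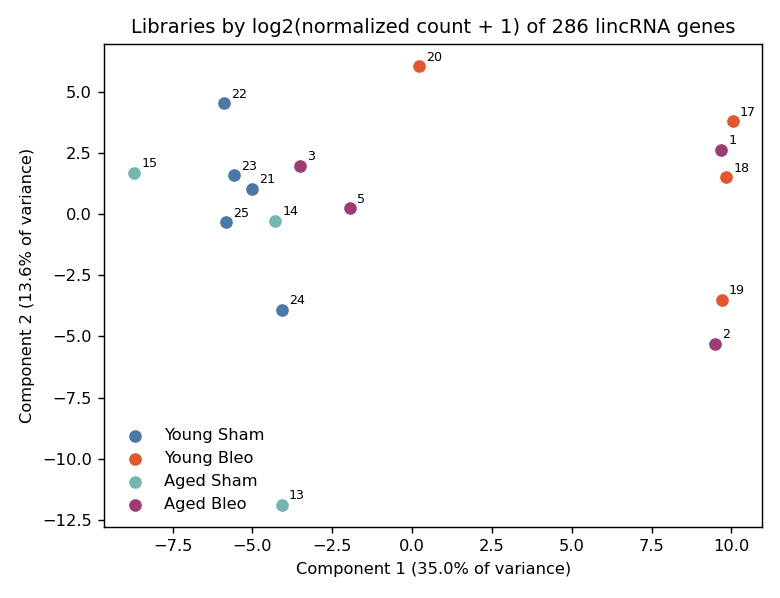
Each point is a library, numbered by its title and coloured by group, placed by the first (x) and second (y) principal component of log2(normalized count + 1) over the 286 lincRNA genes. Young Bleo 17 to 19 and Aged Bleo 1 and 2 stand at 9.50 or above on component 1, and Aged Bleo 3, Aged Bleo 5 and Young Bleo 20 lie nearer the sham libraries.

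Levels between genes are compared in FPKM, which is per length. The median over the 16 libraries was under 0.5 FPKM for 101 of the 286 lincRNAs, at least 1 FPKM for 135 and at least 10 FPKM for 18. The middle lincRNA had 0.787 FPKM, against 2.90 for the 12149 protein-coding genes that passed the same count threshold. Yam1 was highest with 609 FPKM (360 to 1038), and its bounds (chr17:39846958-39848788) are those of a RefSeq gene related to 18S ribosomal RNA, so its reads may come from ribosomal RNA. Malat1 had 128 FPKM (67.9 to 189), and its highest library was below the lowest of Yam1.

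Gm26825 followed with 54.8 FPKM (30.4 to 83.3) and Gm20748 with 54.3 FPKM (46.3 to 79.9). Gm20748 is Bvht (Braveheart) in GENCODE M21, a lincRNA known from heart development. Gm28592 had 27.2 FPKM (5.79 to 42.8), Fendrr 22.0 FPKM (16.7 to 31.9) and 1810058I24Rik 21.4 FPKM (15.8 to 56.3). Gm20603 had 19.9 FPKM (4.40 to 25.9), AU020206 18.1 FPKM (13.0 to 32.7) and Gm26532 14.5 FPKM (7.78 to 22.3). From Gm26825 on, the ranges of neighbours in this order overlap, except that the lowest Gm20748 value is above the highest of Gm28592.

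**Figure D2:**
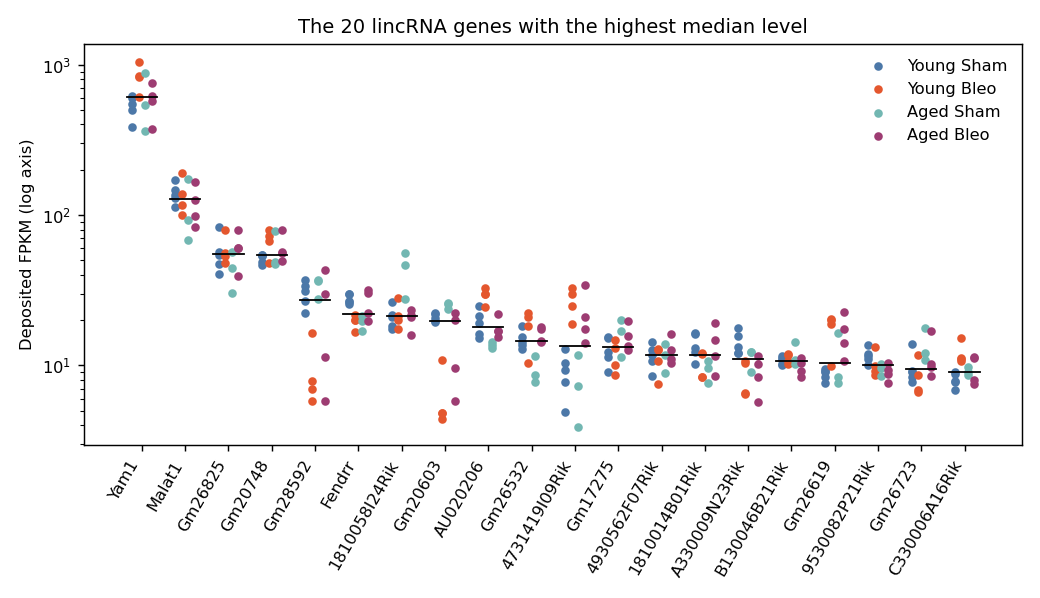
Deposited FPKM (log axis) of the 20 lincRNA genes with the highest median, 1 point per library coloured by group, with a line at the median of the 16 libraries. Yam1 lies above Malat1 in its lowest library, and Gm28592 and Gm20603 are lowest in bleomycin libraries.

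Malat1 and Yam1 were not called in any of the 6 contrasts tested. In Young Bleo vs Young Sham Malat1 differed by -0.05 ± 0.29 on the log2 scale (SE, DESeq2 adjusted p = 0.944) and Yam1 by 0.63 ± 0.28 (adjusted p = 0.114). The spread between replicates was wide. The median coefficient of variation of the 286 genes within a group was lowest in Young Sham (27.2%), similar in both bleomycin groups (30.6% young and 29.9% aged) and highest in Aged Sham (34%), against 17.6% to 23.2% for the protein-coding genes at the same threshold, which include higher counts.

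Many of these genes are not intergenic in a strict sense. Bounds of 153 of the 286 overlap a protein-coding gene of the table, 138 of them on the opposite strand, and 69 more lie within 5000 bases of one. GENCODE M21 held 270 of the 286 identifiers and typed 173 as lincRNA, 57 as antisense and 4 as protein-coding. RefSeq matched 164 of the 286 and typed 145 as lncRNA and 15 as protein-coding. The strand setting of the authors' counting is not given in the sources used here, so reads of an overlapping pair may not be separated.

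The first comparison asked which lincRNAs differ with age without injury. Calls needed an adjusted p of 0.05 or less together with a log2 fold change of 0.5 or more in either direction, and adjusted p-values are those of DESeq2 unless edgeR is named. In Aged Sham vs Young Sham 9 of 286 lincRNAs were called (3.15%), 4 higher and 5 lower, against 3.35% of all genes tested (2.24% higher and 1.11% lower). The edgeR quasi-likelihood test called 2, against 0.862% of all genes. The share was close to the background, and the median log2 fold change was -0.01 over the lincRNAs and 0.02 over all genes.

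Gm26542 (chr11:50237009-50288839) had the highest fold, with normalized counts of 30.2, 61.0, 43.1, 46.8 and 58.7 in Young Sham and 1133, 364 and 161 in Aged Sham. Each aged value lay above each young value, and the aged values spread widely. The log2 fold change was 3.52 ± 0.53 (SE, adjusted p = 3.54e-08, edgeR adjusted p = 0.00403), and it was 2.45 to 3.96 when any 1 library was left out. The gene overlaps Maml1, a Notch coactivator gene on the opposite strand, and Ltc4s, the leukotriene C4 synthase gene. Maml1 differed by -0.25 ± 0.26, adjusted p = 0.729, edgeR adjusted p = 0.708, whereas Ltc4s rose by 3.74 ± 0.49, adjusted p = 4.62e-11, edgeR adjusted p = 0.00204. The log2 levels of Gm26542 and Ltc4s had a Pearson r of 0.99 over the 16 libraries, and how their reads were divided in the counting is not given in the sources used here.

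1810058I24Rik (chr6:35252654-35263496), typed protein-coding by RefSeq, was the other gene that both tests called, with normalized counts of 5927, 4918, 5858, 7923 and 5034 in Young Sham and 15300, 17470 and 8057 in Aged Sham, without overlap. The log2 fold change was 1.20 ± 0.25 (SE, adjusted p = 3.61e-04, edgeR adjusted p = 0.0222). Both bleomycin groups were near the Young Sham level, with 6049 ± 1479 (SD, n = 4) in Young Bleo and 5805 ± 927 (SD, n = 4) in Aged Bleo. Platelet marker sums of the Aged Sham libraries were 891, 3130 and 572 FPKM, in the same order as the gene, against 242 to 469 in Young Sham, and their part in the result was not tested. The gene was still called without Aged Sham 14 (log2 fold change 0.98, adjusted p = 0.0296).

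AI662270 (chr11:83223576-83226604) had 32.1, 17.3, 8.20, 33.9 and 9.78 normalized counts in Young Sham and 95.9, 122 and 48.4 in Aged Sham, again without overlap. The log2 fold change was 2.11 ± 0.52 (SE, adjusted p = 0.00419, edgeR adjusted p = 0.0773), and the call was lost without Aged Sham 14 (adjusted p = 0.0927). It reached 50 counts in 0 Young Sham libraries and so met the count rule through the other groups. Platelet marker sums of the Aged Sham libraries (891, 3130 and 572 FPKM) were in the order of this gene too. In Aged Bleo, where the gene was also above Young Sham (log2 fold change 1.97), the sums were 59.6 to 442 FPKM. Their part was not tested. Gm28875 (chr12:104925501-104926142) rose by 1.21 ± 0.32, adjusted p = 0.00815, edgeR adjusted p = 0.0872, and lost its call without Aged Sham 13 (adjusted p = 0.0892).

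Among the lower genes Mir143hg (chr18:61649625-61665537), which is Carmn in GENCODE M21, is known from smooth muscle and as the host of miR-143 and miR-145. Its normalized counts were 169.9, 311, 246, 144 and 139 in Young Sham and 71.9, 27.7 and 34.7 in Aged Sham, without overlap. The log2 fold change was -2.20 ± 0.50 (SE, adjusted p = 0.00127, edgeR adjusted p = 0.0773). The gene was just inside the count rule, with 50 counts in 5 Young Sham and 3 Aged Bleo libraries and in no other. These are raw counts, and the normalized counts in Aged Bleo (31.4, 56.0, 34.2 and 67.3) lay close to those in Aged Sham. Pericyte and smooth muscle markers (5 of 5 genes) summed to 27.6 to 68.3 FPKM in Young Sham and 16.8 to 29.5 in Aged Sham, and with bleomycin to 10.8 to 30.8 in young and 8.28 to 11.9 in aged mice. Their part in the result was not tested.

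Neat1 (chr19:5824708-5845478) was a further gene with lower levels. Its normalized counts were 5612, 6325, 4882, 5089 and 7168 in Young Sham and 4504, 3354 and 3380 in Aged Sham, all of the aged values below the young ones. The log2 fold change was -0.64 ± 0.17 (SE, adjusted p = 0.00865, edgeR adjusted p = 0.0783), and the call was lost without Aged Sham 14 or Aged Sham 15 (adjusted p = 0.106 and 0.0684). Malat1 differed by -0.17 ± 0.32 (adjusted p = 0.87).

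The other 3 genes were lower with age. Gm6297, which overlaps the chaperone gene Dnaja1 on the opposite strand, had 83.1 to 133 normalized counts in Young Sham and 25.6 to 32.3 in Aged Sham (-1.78 ± 0.44, adjusted p = 0.00393, edgeR adjusted p = 0.0858), and would not have met the count rule without the Young Sham libraries. A130014A01Rik had 315 to 606 and 172 to 241 (-1.17 ± 0.30, adjusted p = 0.0071, edgeR adjusted p = 0.0783) and lost its call without Aged Sham 13 (adjusted p = 0.0516). Gm26668 had 65.5 to 141 and 32.0 to 62.3 (-1.26 ± 0.35, adjusted p = 0.0159, edgeR adjusted p = 0.127) and lost its call without Young Sham 22 or Aged Sham 13 or Aged Sham 15 (adjusted p = 0.0644, 0.108 and 0.0647). The nearest protein-coding gene was called for 0 of the 9 lincRNAs, a count that takes Maml1 for Gm26542. Of the 4 that overlap any coding gene, 1 (Gm26542, with Ltc4s) had a called one.

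**Figure D3:**
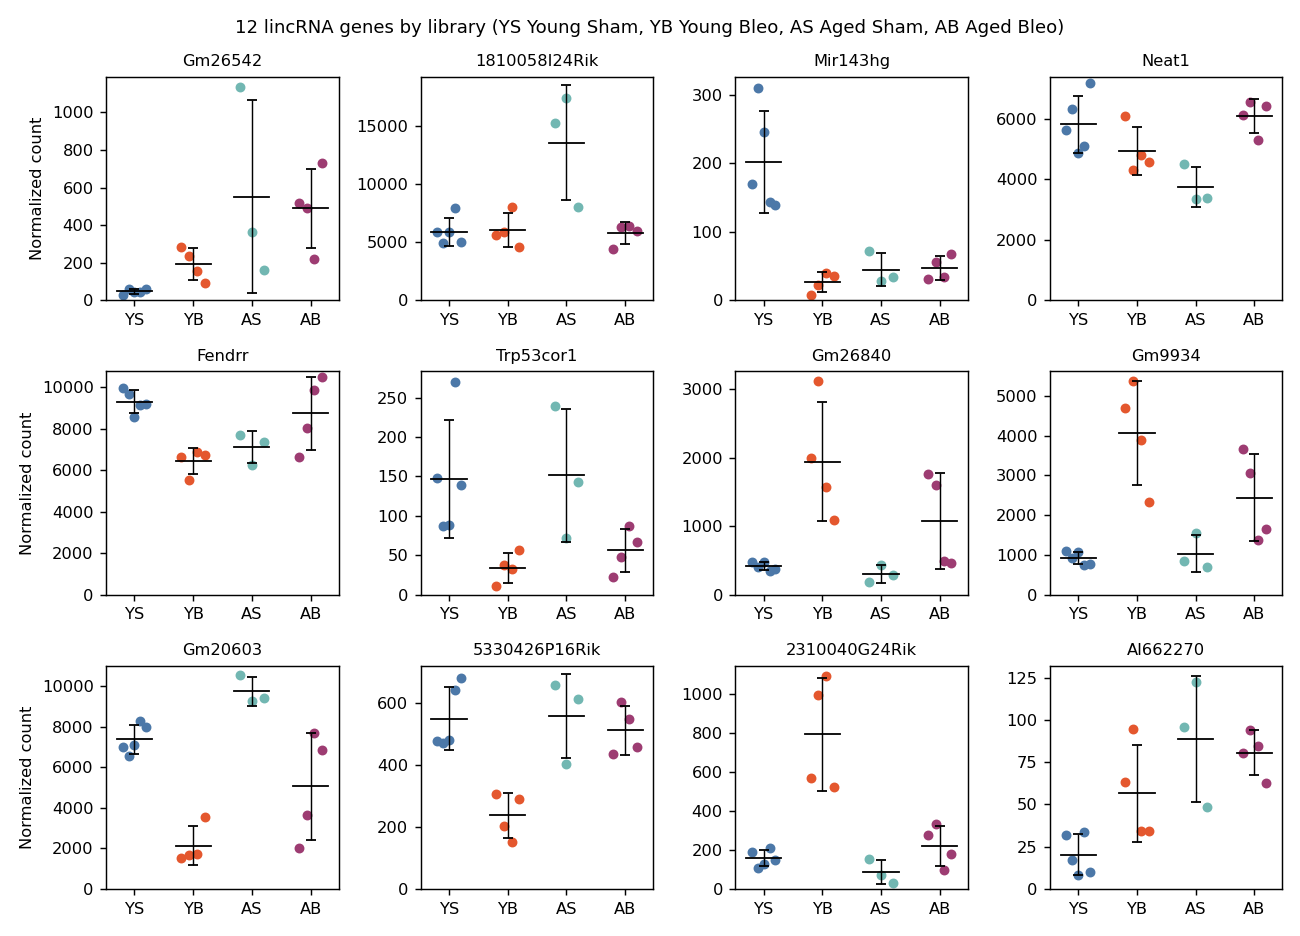
Normalized counts (y, linear axes from 0) of 12 lincRNA genes in Young Sham (YS), Young Bleo (YB), Aged Sham (AS) and Aged Bleo (AB), 1 point per library, with the group mean as a line and its SD as a bar. Means of Gm26542 and 1810058I24Rik are highest in Aged Sham, of Mir143hg in Young Sham, and of Gm26840, Gm9934 and 2310040G24Rik in Young Bleo.

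The second comparison asked what bleomycin changes in young mice, and it gave the most calls. In Young Bleo vs Young Sham 47 of 286 lincRNAs were called (16.4%), 20 higher and 27 lower, against 13.9% of all genes tested (7.57% higher and 6.35% lower). Protein-coding genes at the same count threshold were called in 17.1%. The edgeR test called 33, each among the 47, against 9.78% of all genes. Of the 150 lincRNAs with 50 counts in every library 28 were called, 9 higher and 19 lower. Leaving out 1 library at a time gave 33 to 60 calls, 33 without Young Bleo 18 and 35 without Young Bleo 17. Without Young Bleo 18 and Aged Bleo 1, the libraries with the highest macrophage marker sums of their groups, 34 were called. Aged Bleo 1 is in neither group compared, and the part of macrophage RNA was not tested.

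2610035D17Rik (chr11:113043895-113201838) had the highest fold. Its normalized counts were 73.6, 6.59, 61.5, 42.1 and 53.8 in Young Sham and 544, 389.9, 252 and 186 in Young Bleo, without overlap (log2 fold change 2.86 ± 0.61 SE, adjusted p = 1.16e-04, edgeR adjusted p = 0.0111). It reached 50 counts in 2 Young Sham and 1 Aged Sham libraries and would not have met the count rule without the Young Bleo libraries, where it was high. 2310040G24Rik (chr6:86483376-86488227) had 189.8, 109.6, 129, 208 and 149.6 and 568, 993, 1093 and 521, also without overlap (2.33 ± 0.41, adjusted p = 1.87e-06, edgeR adjusted p = 0.00388).

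Gm26840 (chr4:155769969-155776161) had 475, 401, 478, 342 and 378 normalized counts in Young Sham and 1998, 3115, 1578 and 1087 in Young Bleo (2.23 ± 0.40, adjusted p = 2.67e-06, edgeR adjusted p = 0.00434). It overlaps Vwa1, an extracellular matrix protein gene, on the opposite strand, and Vwa1 rose as well (2.30 ± 0.42, adjusted p = 4.10e-06, edgeR adjusted p = 0.00500). The log2 levels of both had a Pearson r of 0.99 over the 16 libraries. Gm9934 (chr7:93052081-93081027) had 1096, 915, 1066, 759 and 783 and 4699, 5366, 3884 and 2333 (2.14 ± 0.32, adjusted p = 7.25e-09, edgeR adjusted p = 0.0016). For both genes each Young Bleo library lay above each Young Sham library. The nearest coding gene of Gm9934 is the lysosomal peptidase gene Prcp, 117508 bases away, which rose by 1.10 ± 0.24, adjusted p = 1.67e-04, edgeR adjusted p = 0.00739.

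2500002B13Rik (chr8:57488054-57508877), 194 bases from the histone deacetylase complex gene Sap30, had 58.5, 57.7, 73.8, 58.5 and 37.2 normalized counts in Young Sham and 349, 527, 298 and 68.0 in Young Bleo (2.45 ± 0.63, adjusted p = 0.00171, edgeR adjusted p = 0.0253). Young Bleo 20 lay within the Young Sham range, and Sap30 rose by 0.97 ± 0.26, adjusted p = 0.0028, edgeR adjusted p = 0.0191. Gm26542 had 282, 238, 155 and 92.7 in Young Bleo, all above Young Sham (2.00 ± 0.49, adjusted p = 9.93e-04, edgeR adjusted p = 0.018), and Ltc4s rose by 2.17 ± 0.45, adjusted p = 6.28e-05, edgeR adjusted p = 0.00833. Within Young Bleo, each of these 6 genes was lowest in library 20. That library had the lowest macrophage marker sum of its group (151 FPKM, against 286 to 439), and the part of this difference was not tested.

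Mir143hg led the genes that fell, with 7.80, 21.8, 39.7 and 36.3 normalized counts in Young Bleo, all below Young Sham (-2.94 ± 0.46, adjusted p = 3.19e-08, edgeR adjusted p = 0.00338). Trp53cor1 (chr17:29057474-29078961) had 148, 87.3, 88.2, 270.2 and 139 in Young Sham and 10.4, 37.4, 32.0 and 56.4 in Young Bleo, without overlap (-2.10 ± 0.52, adjusted p = 0.00119, edgeR adjusted p = 0.0245). Cdkn1a, 12018 bases away, fell too (-1.07 ± 0.31, adjusted p = 0.00653, edgeR adjusted p = 0.0389), and log2 levels of both had a Pearson r of 0.82 over the 16 libraries. Between the sham groups Trp53cor1 differed by 0.04 ± 0.56 (adjusted p = 0.987) and Cdkn1a by 1.08 ± 0.34, adjusted p = 0.0416, edgeR adjusted p = 0.142.

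Gm20603 was among the 10 lincRNAs with the highest FPKM. Its normalized counts were 6986, 6555, 7094, 8267 and 7972 in Young Sham and 1537, 1677, 1733 and 3569 in Young Bleo, with Young Bleo 20 highest but still below Young Sham (-1.79 ± 0.32, adjusted p = 2.41e-06, edgeR adjusted p = 0.00469). It overlaps the adhesion molecule genes Icam1, Icam4 and Icam5, and Icam1 fell as well (-1.79 ± 0.40, adjusted p = 2.05e-04, edgeR adjusted p = 0.0155), as did Icam4 (-0.98 ± 0.32, adjusted p = 0.0202, edgeR adjusted p = 0.0771), the nearest coding gene by the rule used.

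Gm13387 (chr2:25122603-25145396) had 607, 568, 539, 249 and 418 normalized counts in Young Sham and 69.3, 79.0, 107 and 146 in Young Bleo (-2.25 ± 0.57, adjusted p = 0.00166, edgeR adjusted p = 0.0324). 6330403K07Rik, typed protein-coding in GENCODE M21, had 96.4 to 223 and 13.2 to 64.1 (-2.12 ± 0.58, adjusted p = 0.00362, edgeR adjusted p = 0.0384). 1700023L04Rik had 40.4 to 99.4 and 2.60 to 29.8 (-1.88 ± 0.61, adjusted p = 0.0184, edgeR adjusted p = 0.0807). It lost its call without Young Sham 24 or Young Bleo 17 (adjusted p = 0.0554 and 0.0584), and it reached 50 counts in 0 Young Bleo libraries. Mir143hg, Trp53cor1, 6330403K07Rik and 1700023L04Rik would not have met the count rule without the Young Sham libraries, where they were high. The calls of the other 11 genes with the highest and lowest folds held whichever of the 9 libraries was left out.

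By role, 3 of the 5 genes on the developmental and vascular list fell and 0 rose, against 6.35% and 7.57% of all genes (median log2 fold change -0.53, against 0.01 over all genes). Fendrr (chr8:121054882-121083110) had 9973, 9693, 8583, 9139 and 9201 normalized counts in Young Sham and 6629, 5546, 6868 and 6752 in Young Bleo. The fall was small and the ranges were apart (-0.53 ± 0.14, adjusted p = 0.00187, edgeR adjusted p = 0.0227). Foxf1 starts 1276 bases from Fendrr and fell by more (-1.30 ± 0.29, adjusted p = 1.70e-04, edgeR adjusted p = 0.0111). 5330426P16Rik, Dubr in GENCODE M21 (chr16:50719294-50732773), had 477, 470.4, 482, 645 and 682 in Young Sham and 307, 205, 152 and 291 in Young Bleo, without overlap (-1.21 ± 0.23, adjusted p = 1.67e-05, edgeR adjusted p = 0.00626). The third was Mir143hg, which met the count rule only with the Young Sham libraries, where it was high. The Fendrr call was lost without Young Bleo 18, where the log2 fold change of -0.46 missed the fold threshold, while that of 5330426P16Rik held whichever library was left out. Gm20748 (Bvht) differed by 0.36 ± 0.22 (adjusted p = 0.313) and 1700020I14Rik, Oip5os1 in RefSeq, by 0.24 ± 0.18 (adjusted p = 0.435). In Aged Bleo vs Aged Sham 0 of the 5 rose or fell by call (median log2 fold change -0.07), against 5.83% of all genes called.

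The microRNA list held 15 lincRNAs, the 14 with a microRNA within their bounds on either strand and Mir143hg by its name. Of these 4 fell and 0 rose, against 6.35% and 7.57% of all genes (median log2 fold change -0.14). They were Mir143hg, A330023F24Rik, Gm20603, whose strand is unknown, and 5330426P16Rik, whose microRNA lies on the opposite strand, so the latter pair are not shown to be hosts. Mir143hg and 5330426P16Rik are also on the developmental and vascular list, so the counts of both lists are not independent. In Aged Bleo vs Aged Sham 1 of the 15 rose and 0 fell (median log2 fold change 0.20), against 3.39% and 2.44% of all genes. A330023F24Rik, the host of miR-29b-2 and miR-29c shown above, had 145, 184, 107, 228 and 438 normalized counts in Young Sham and 52.0, 137, 103 and 72.6 in Young Bleo. Its ranges overlapped, and its call (-1.28 ± 0.47, adjusted p = 0.0441) was not made by edgeR (edgeR adjusted p = 0.102). The miR-101a host E130102H24Rik differed by 0.24 ± 0.38 (adjusted p = 0.758) and the let-7d host 6720427I07Rik by 0.04 ± 0.39 (adjusted p = 0.967). The A330023F24Rik call was lost without any of 6 libraries, Young Sham 22, Young Sham 24, Young Sham 25, Young Bleo 17, Young Bleo 19 and Young Bleo 20 (adjusted p of 0.0600 to 0.206). Counts of a host do not measure the mature microRNA.

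The list of small nucleolar RNA hosts held 11 genes, placed there without comparing strands, so it may include some that are not hosts. These gave 0 calls by DESeq2 in the 6 contrasts, against 19.8% of all genes tested with a call in at least 1. Their median log2 fold change was 0.20 in Young Bleo vs Young Sham, -0.36 in Aged Sham vs Young Sham and 0.50 in Aged Bleo vs Aged Sham. The highest single value in young mice was that of Snhg7 (0.82 ± 0.34, adjusted p = 0.0889) and in aged mice that of Gm26816 (1.20 ± 0.53, adjusted p = 0.171). Jpx and Ftx, which act in X inactivation, were low (median 0.185 and 0.0849 FPKM) and were not called. Pvt1, beside Myc, had 23.6, 28.8, 53.3, 7.02 and 0 normalized counts in Young Sham and 62.4, 65.5, 66.1 and 75.0 in Young Bleo, a difference of 1.60 ± 0.77 that was not called (adjusted p = 0.156).

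A further question was whether called lincRNAs went with their neighbours. Of the 47 genes called in Young Bleo vs Young Sham 26 (55.3%) had a nearest protein-coding gene that was called, and in all 26 pairs both genes had the same sign. Of the 239 lincRNAs not called, 25 (10.5%) had a called neighbour. The share was 78.3% (18 of 23) where the lincRNA overlaps the coding gene and 33.3% (8 of 24) where it does not. By this rule the neighbour of Fendrr and Gm26878 is the overlapping gene Gm20388, not Foxf1, and Gm20388 was not called (0.17 ± 0.19, adjusted p = 0.643). Prcp is counted for both Gm9934 and Gm26862, so the pairs do not all have different neighbours. In Aged Bleo vs Aged Sham 5 of 14 called lincRNAs had a called neighbour, 5 of 8 overlapping and 0 of 6 others, against 3.68% of those not called. The count was 13 of 26 in Aged Bleo vs Young Sham (against 5.77%), 0 of 4 in Aged Bleo vs Young Bleo and 0 of 3 in the aged minus young contrast.

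Overlapping pairs, given as log2 fold changes of the lincRNA and the coding gene, included Gm28592 with Phlda1 (-1.75 and -1.76), Gm26811 with the semaphorin receptor gene Plxna1 (-1.70 and -1.56) and Gm26857 with the kinase gene Lyn (-1.20 and -1.09). Pairs apart from each other included C030037D09Rik with the RNA-binding protein gene Msi2 (-1.11 and -0.94, 132 bases) and AU020206 with Akap13 (0.56 and 0.61, 15153 bases). These pairs were chosen after their values were seen. The lincRNA calls of Gm28592, Gm26811, Gm26857 and C030037D09Rik held whichever library was left out, whereas that of AU020206 was lost without any of 5 libraries, Young Sham 22, Young Sham 23, Young Bleo 17, Young Bleo 18 and Young Bleo 19 (adjusted p of 0.0519 to 0.0802). By contrast, 2310040G24Rik rose while C87436, 9876 bases away, differed by -0.11 ± 0.17 (adjusted p = 0.755).

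**Figure D4:**
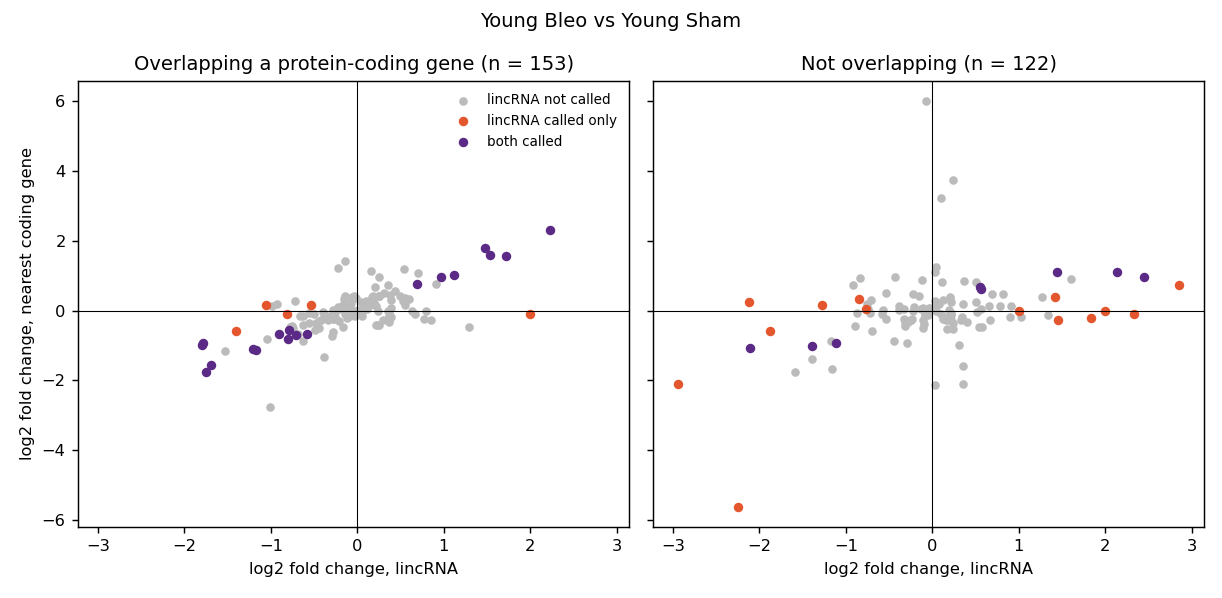
Log2 fold change in Young Bleo vs Young Sham of each lincRNA (x) and of its nearest protein-coding gene (y), for the 153 lincRNAs that overlap that gene (left) and for 122 others whose neighbour had a fold (right). Purple points are pairs with both genes called, 18 on the left and 8 on the right, and they lie in the quadrants of equal sign.

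Promoters of 4 called lincRNAs are shown, among them that of Fendrr, which fell with Foxf1 in young mice. In Aged Bleo vs Aged Sham Fendrr differed by 0.30 ± 0.16 (adjusted p = 0.273) and Foxf1 by -0.58 ± 0.32, adjusted p = 0.329, edgeR adjusted p = 0.396, and their log2 levels had a Pearson r of 0.57 over the 16 libraries. RefSeq promoters (GRCm38.p6, 250 bases before to 50 after the start) were found for 117 of the 286 lincRNAs, 129 sequences in all. AGGAAG and CCGGAAG, letters found in sites of ETS transcription factors such as Erg, were searched on both strands, and neither contains the other although their ends can overlap. AGGAAG was in 34.1% of the lincRNA promoters and 35.4% of all 32851 promoters, and CCGGAAG in 16.3% and 8.86%. Matches are in capitals, as read on either strand, and are a description. The windows are those of Fendrr (chr8:121083061-121083360, minus strand), Gm13387 (chr2:25145438-25145737, minus strand), 2310040G24Rik (chr6:86488178-86488477, minus strand) and 1810058I24Rik (chr6:35252460-35252759, plus strand), 5′ to 3′ on the strand of the gene:

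Fendrr: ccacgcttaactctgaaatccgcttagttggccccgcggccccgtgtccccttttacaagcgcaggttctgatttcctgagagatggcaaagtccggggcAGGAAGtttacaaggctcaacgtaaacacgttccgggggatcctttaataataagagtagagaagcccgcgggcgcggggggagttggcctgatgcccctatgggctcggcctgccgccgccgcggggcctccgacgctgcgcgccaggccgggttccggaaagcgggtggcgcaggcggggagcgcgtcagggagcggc
Gm13387: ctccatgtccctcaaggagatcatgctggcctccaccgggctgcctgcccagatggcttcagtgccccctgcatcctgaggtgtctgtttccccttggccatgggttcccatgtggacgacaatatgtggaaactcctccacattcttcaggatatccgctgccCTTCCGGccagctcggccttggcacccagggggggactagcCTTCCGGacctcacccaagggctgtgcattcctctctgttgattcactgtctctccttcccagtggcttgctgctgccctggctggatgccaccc
2310040G24Rik: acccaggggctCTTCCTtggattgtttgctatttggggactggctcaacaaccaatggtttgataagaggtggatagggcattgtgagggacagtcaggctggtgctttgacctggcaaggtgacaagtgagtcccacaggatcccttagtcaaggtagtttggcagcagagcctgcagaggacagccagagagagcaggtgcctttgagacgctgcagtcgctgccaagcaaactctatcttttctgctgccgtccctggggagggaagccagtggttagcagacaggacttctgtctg
1810058I24Rik: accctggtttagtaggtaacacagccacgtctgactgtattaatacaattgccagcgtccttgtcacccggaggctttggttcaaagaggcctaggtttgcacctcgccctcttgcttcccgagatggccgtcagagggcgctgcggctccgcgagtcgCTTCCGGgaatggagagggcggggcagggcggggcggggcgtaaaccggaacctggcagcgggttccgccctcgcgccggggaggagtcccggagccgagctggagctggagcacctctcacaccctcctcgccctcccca

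AGGAAG occurs 1 time each in the Fendrr and 2310040G24Rik windows, and CCGGAAG 2 times in that of Gm13387 and 1 time in that of 1810058I24Rik.

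The third comparison asked the same of aged mice. In Aged Bleo vs Aged Sham 14 of 286 lincRNAs were called (4.90%), 9 higher and 5 lower, against 5.83% of all genes tested (3.39% higher and 2.44% lower). The edgeR test called 1, against 0.797% of all genes. The count depended on single libraries. It was 5 without Aged Bleo 1, 7 without Aged Sham 15, 9 without Aged Bleo 2, 22 without Aged Bleo 5 and 28 without Aged Bleo 3.

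1810058I24Rik was the gene that both tests called, with 4441, 6360, 6411 and 6006 normalized counts in Aged Bleo, all below Aged Sham (-1.23 ± 0.26, adjusted p = 5.19e-04, edgeR adjusted p = 0.0444). Platelet marker sums were 59.6 to 442 FPKM in Aged Bleo against 572 to 3130 in Aged Sham, and their part was not tested. Neat1 had 6129, 6552, 5303 and 6413 in Aged Bleo, all above Aged Sham (0.70 ± 0.17, adjusted p = 0.00329, edgeR adjusted p = 0.0526).

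Gm26840 rose by 1.84 ± 0.46, adjusted p = 0.00358, edgeR adjusted p = 0.0673, with normalized counts of 179.8, 434 and 288 in Aged Sham and 1758, 1602, 493 and 459 in Aged Bleo, where libraries 1 and 2 were high and libraries 3 and 5 low. 2500002B13Rik (505, 607, 79.2 and 97.3 in Aged Bleo), Gm10425 (519, 485, 171 and 193), Gm17690 (1672, 1683, 421 and 506) and Gm9934 (3661, 3068, 1377 and 1660) had the same high and low libraries. Macrophage marker sums of Aged Bleo 1, 2, 3 and 5 were 1537, 857, 360 and 208 FPKM, and their part in the split was not tested. With Young Bleo 18 and Aged Bleo 1 left out together 5 lincRNAs were called, the same count as without Aged Bleo 1 alone.

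The calls of 2500002B13Rik (2.16 ± 0.71, adjusted p = 0.0432, edgeR adjusted p = 0.17), Gm10425 (1.66 ± 0.50, adjusted p = 0.0209, edgeR adjusted p = 0.108) and Gm17690 (1.33 ± 0.44, adjusted p = 0.0456, edgeR adjusted p = 0.142) were each lost without 3 to 5 of the 7 libraries, Aged Sham 15 and Aged Bleo 1 and 2 among them (adjusted p of 0.0929 to 0.207, adjusted p of 0.0842 to 0.147 and adjusted p of 0.0717 to 0.248 in turn). 4731419I09Rik, opposite to the metalloproteinase gene Adam15, rose by 1.40 ± 0.37, adjusted p = 0.00573, edgeR adjusted p = 0.0689, and lost its call without Aged Sham 13 or Aged Bleo 1 (adjusted p = 0.0549 and 0.0689). Gm26668 rose by 1.33 ± 0.36, adjusted p = 0.00894, edgeR adjusted p = 0.0872, and lost its call without Aged Sham 13 or Aged Sham 15 (adjusted p = 0.0633 and 0.055). Gm9934 (1.24 ± 0.36, adjusted p = 0.0174, edgeR adjusted p = 0.0911) and Gm16754 (0.62 ± 0.16, adjusted p = 0.00443, edgeR adjusted p = 0.0709) were the remaining higher genes, and the call of Gm9934 was lost without any of 4 libraries, Aged Sham 13, Aged Sham 15, Aged Bleo 1 and Aged Bleo 2 (adjusted p of 0.0665 to 0.136). The calls of Gm16754 and Neat1 held whichever library was left out.

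Of the lower genes Gm26649, opposite to the transcription factor gene Klf7, fell by 1.01 ± 0.27, adjusted p = 0.00866, edgeR adjusted p = 0.0666, and lost its call without Aged Sham 13 or Aged Bleo 1 (adjusted p = 0.0989 and 0.0555). Klf7 fell as well (-0.76 ± 0.19, adjusted p = 0.00356, edgeR adjusted p = 0.0554). Gm26778, opposite to Kctd12, differed by -0.86 ± 0.24, adjusted p = 0.0122, edgeR adjusted p = 0.0755, and lost its call without Aged Sham 14 or Aged Sham 15 or Aged Bleo 1 (adjusted p = 0.0519, 0.115 and 0.0663). AI504432, beside the potassium channel gene Kcna3, had 119.9, 330 and 78.6 normalized counts in Aged Sham and 3.92, 17.0, 42.6 and 69.8 in Aged Bleo (-2.40 ± 0.78, adjusted p = 0.0386, edgeR adjusted p = 0.143). Platelet marker sums were 891, 3130 and 572 FPKM in these Aged Sham and 59.6, 201, 346 and 442 in these Aged Bleo libraries. Within both groups they rank the libraries as the gene does, and their part was not tested. The AI504432 call was lost without any of 4 libraries (adjusted p of 0.0607 to 0.303), Aged Sham 13 and 14 and Aged Bleo 1 and 2. It reached 50 counts in 3 Aged Sham and 2 Aged Bleo libraries and would not have met the count rule without the Aged Sham libraries. The same held for RP23-456B9.23, with 1 library at 50 counts in each of these groups. RP23-456B9.23 (-1.12 ± 0.37, adjusted p = 0.042, edgeR adjusted p = 0.189) lost its call without Aged Sham 13 or 15 or Aged Bleo 1, 2 or 5 (adjusted p of 0.0786 to 0.245).

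The bleomycin comparisons of young and aged mice share no library. Of the 20 lincRNAs that rose in young mice 15 had a positive fold in aged mice and 6 were called higher there, against 3.39% of all genes. Of the 27 that fell 23 had a negative fold and 2 were called lower, against 2.44% of all genes. Of the 239 lincRNAs not called in young mice 139 had a positive and 100 a negative fold in aged mice, and 3 were called higher and 3 lower. The median log2 fold change of the genes that rose in young mice was 1.50 in young and 0.44 in aged mice, and of those that fell -1.21 and -0.47. Because both sets were chosen by their folds in young mice, the smaller size in aged mice is a description. The 8 genes called at both ages had the same direction at both, Gm26840, Gm9934, 4731419I09Rik, 2500002B13Rik, Gm10425 and Gm17690 higher and Gm26649 and Gm26778 lower.

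**Figure D5:**
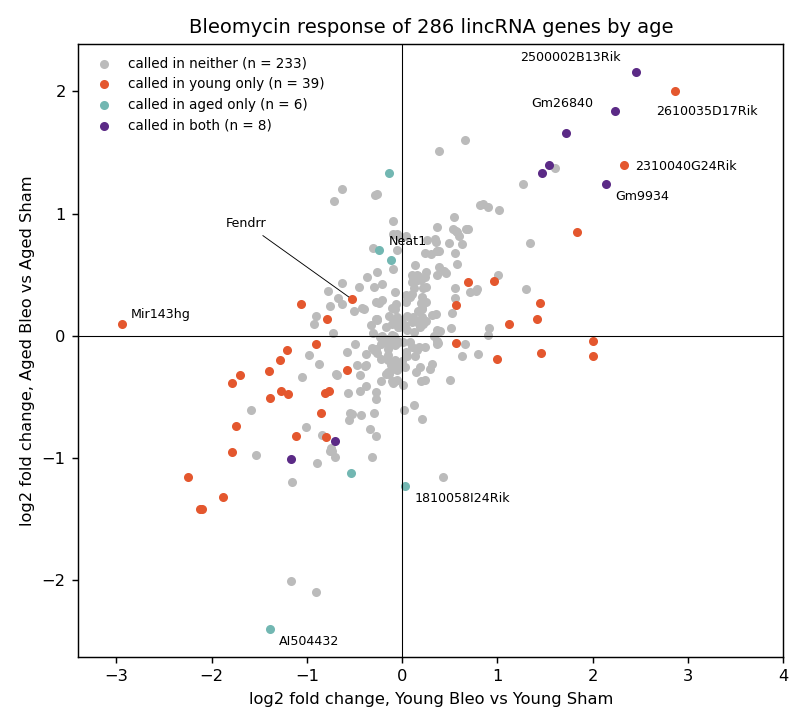
Log2 fold change of each of the 286 lincRNAs after bleomycin in young (x) and aged (y) mice, coloured by where it was called. The 8 genes called at both ages lie in the quadrants of equal sign, and Mir143hg lies at -2.94 in young and 0.10 in aged mice.

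The difference between the responses was also tested itself. For the bleomycin response, aged minus young, 3 of 286 lincRNAs were called (1.05%), 3 higher and 0 lower, against 0.381% of all genes tested (0.134% higher and 0.247% lower). The edgeR test called 0, against 0.00546% of all genes, and 23 lincRNAs had an unadjusted edgeR p under 0.05. The DESeq2 count was 0 without Aged Sham 14, 1 without Young Sham 22, Young Bleo 18 or 19 or Aged Bleo 5, and 6 without Young Bleo 20.

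Mir143hg differed by 3.04 ± 0.70 on the log2 scale (adjusted p = 0.012, edgeR adjusted p = 0.336). It fell in young mice and differed by 0.10 ± 0.52 in aged mice (adjusted p = 0.957), whose sham libraries were at 27.7 to 71.9 normalized counts. The gene met the count rule only with the Young Sham libraries, where it was high, and the same libraries enter this difference. Neat1 differed by 0.94 ± 0.23, adjusted p = 0.0241, edgeR adjusted p = 0.336, with -0.24 in young mice (adjusted p = 0.328). Fendrr differed by 0.83 ± 0.21, adjusted p = 0.0267, edgeR adjusted p = 0.35. It had 7717, 6254 and 7383 normalized counts in Aged Sham and 6631, 8060, 9863 and 10510 in Aged Bleo, ranges that overlapped (0.30 ± 0.16, adjusted p = 0.273). The higher Fendrr values are those of Aged Bleo 3 and 5, which lie nearer the sham libraries on the first component. Macrophage marker sums of Aged Bleo 3 and 5 were 360 and 208 FPKM, against 1537 and 857 in Aged Bleo 1 and 2. The part of this split was not tested. Without Aged Sham 14 each of the 3 missed the adjusted p threshold (adjusted p = 0.0561, 0.0981 and 0.108 for Mir143hg, Neat1 and Fendrr), with log2 differences of 2.78, 0.87 and 0.75 and 2 Aged Sham libraries left. Neat1 lost its call without any of 6 of the 16 libraries and Fendrr without any of 9 (adjusted p of 0.0714 to 0.0981 and adjusted p of 0.0626 to 0.108).

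The injured groups were compared next. In Aged Bleo vs Young Bleo 4 of 286 lincRNAs were called (1.40%), 2 higher and 2 lower, against 1.03% of all genes tested (0.616% higher and 0.410% lower). The edgeR test called 0, against 0.0437% of all genes, and 24 lincRNAs had an unadjusted edgeR p under 0.05. The DESeq2 count was 1 without Young Bleo 19, 2 without Young Bleo 17 or 18 or Aged Bleo 3 or 5, 8 without Aged Bleo 1 and 9 without Young Bleo 20. 5330426P16Rik (Dubr) had 436, 605, 551 and 459 normalized counts in Aged Bleo, all above Young Bleo (1.10 ± 0.25, adjusted p = 0.00314, edgeR adjusted p = 0.135), and was called whichever library was left out. 2310040G24Rik had 275, 333, 99.0 and 182 in Aged Bleo, all below Young Bleo (-1.84 ± 0.44, adjusted p = 0.00623, edgeR adjusted p = 0.198), and lost its call without Young Bleo 19 (adjusted p = 0.0727).

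Gm20603 had 2040, 3636, 7665 and 6867 normalized counts in Aged Bleo, a range that overlapped Young Bleo (1.25 ± 0.34, adjusted p = 0.0302, edgeR adjusted p = 0.27). The high libraries, Aged Bleo 3 and 5, are those nearer the sham libraries on the first component, with the lower macrophage marker sums of their group (360 and 208 FPKM, against 1537 and 857), and their part in the result was not tested. Its call was lost without Young Bleo 17, 18 or 19 or Aged Bleo 3 or 5 (adjusted p of 0.13 to 0.213). AU020206 had 1962, 2148, 2021 and 1498 in Young Bleo and 1451, 1204, 999.5 and 1105 in Aged Bleo (-0.68 ± 0.19, adjusted p = 0.0368, edgeR adjusted p = 0.24), and lost its call without Young Bleo 17, 18 or 19 or Aged Bleo 2, 3 or 5 (adjusted p of 0.0767 to 0.166).

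Aged Bleo vs Young Sham joins age and injury and shares its libraries with the comparisons above. It gave 26 calls among 286 lincRNAs (9.09%), 17 higher and 9 lower, against 9.72% of all genes tested (6.58% higher and 3.14% lower). The edgeR test called 14, against 5.69% of all genes. The count was 13 without Aged Bleo 1 and 14 without Aged Bleo 2. Gm26542 led with 519, 492, 220.2 and 732 normalized counts in Aged Bleo, all above Young Sham (3.35 ± 0.49, adjusted p = 2.61e-09, edgeR adjusted p = 0.00193), and Ltc4s rose by 3.21 ± 0.45, adjusted p = 3.79e-10, edgeR adjusted p = 0.0017. AI662270 had 80.8, 94.3, 84.6 and 62.5 (1.97 ± 0.48, adjusted p = 0.00109, edgeR adjusted p = 0.0275), and 2500002B13Rik rose by 2.5 ± 0.63, adjusted p = 0.00173, edgeR adjusted p = 0.0325.

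Gm16548 (chr1:164148591-164152217), opposite to the P-selectin gene Selp, had 43.4, 109, 176, 86.6 and 97.8 normalized counts in Young Sham and 203, 593, 184 and 243 in Aged Bleo, without overlap (1.59 ± 0.42, adjusted p = 0.00351, edgeR adjusted p = 0.0327). Selp rose by 1.54 ± 0.37, adjusted p = 0.00104, edgeR adjusted p = 0.0215, and the log2 levels of both had a Pearson r of 0.83 over the 16 libraries. The Gm16548 call was lost without Aged Bleo 2 (adjusted p = 0.0847). 2610035D17Rik (1.97 ± 0.61, adjusted p = 0.0175, edgeR adjusted p = 0.0736) lost its call without Aged Bleo 1 or Aged Bleo 2 (adjusted p = 0.144 and 0.121). Gm26721 (1.73 ± 0.56, adjusted p = 0.0232, edgeR adjusted p = 0.0772) lost it without Young Sham 22 or 24 or Aged Bleo 1 or 2 (adjusted p of 0.0589 to 0.203).

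Mir143hg (-2.10 ± 0.45, adjusted p = 1.37e-04, edgeR adjusted p = 0.0185), Gm21807 (-1.85 ± 0.49, adjusted p = 0.00314, edgeR adjusted p = 0.042) and C030037D09Rik (-1.04 ± 0.27, adjusted p = 0.00289, edgeR adjusted p = 0.0308) were lower in Aged Bleo by both tests and held their calls whichever library was left out. RP24-568B16.3 (-1.19 ± 0.34, adjusted p = 0.00857, edgeR adjusted p = 0.0566) lost its call without Aged Bleo 1 (adjusted p = 0.0645). RP23-456B9.23 (-1.05 ± 0.32, adjusted p = 0.0165, edgeR adjusted p = 0.115) lost it without Young Sham 25 or Aged Bleo 1 or Aged Bleo 2 (adjusted p = 0.077, 0.0542 and 0.0885), while Gm26641 (-1.03 ± 0.33, adjusted p = 0.0259, edgeR adjusted p = 0.0982) lost it without Young Sham 22 or 24 or Aged Bleo 1, 2 or 5 (adjusted p of 0.0728 to 0.132). RP23-456B9.23 reached 50 counts in 4 Young Sham and 1 Aged Bleo library and would not have met the count rule without the Young Sham libraries. Of the other genes above, AI662270 and 2610035D17Rik would not have met the count rule without the Aged Bleo libraries, nor Mir143hg without those of Young Sham.

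In the 6 contrasts together 65 of the 286 lincRNAs (22.73%) were called at least once and 221 were not, against 19.8% of all genes tested. The count rule was met narrowly by 21 genes with exactly 8 libraries at 50 counts, whose median counts were 44.5 to 58.5 and which include Mir143hg, AI662270, AI504432, 1700023L04Rik, RP23-456B9.23 and Pvt1. Just outside it, 13 lincRNAs with 7 such libraries had median counts of 21.0 to 47.0, among them 1810006J02Rik and 2810414N06Rik.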

How the data were processed

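Lung ECs of 16 mice were measured by bulk RNA-seq. Reads were aligned by the authors with STAR 2.5.2b to mm10 and counted per gene with Subread featureCounts, and raw read counts were deposited. The labels name a SMART-Seq v4 and Nextera preparation and the study's methods a poly(A)-selecting TruSeq kit, so the kit is unsettled. Annotation release, strand setting and treatment of multi-mapping reads are not given in the sources used here. The deposited FPKM values were scaled by the authors to a library total of which the gene counts made up 40.3% to 44.7%.

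All genes of the table entered DESeq2 1.42.0 (R 4.3.3) with 1 coefficient per group over the 16 libraries, Wald tests, default filters, unshrunken folds and Benjamini-Hochberg adjustment. edgeR 4.0.16 (quasi-likelihood) and limma 3.58.1 served as alternatives. Normalized counts are counts divided by DESeq2 size factors. Scripts were tested on simulated data. Genes named are the 10 with the highest median FPKM, up to 6 called genes from either end of the folds per comparison (mean normalized count 50 or more), called or defining genes on the lists of roles, and genes at the count threshold, and further names were chosen after their values were seen. The lincRNAs and lists were chosen with earlier results of these data known. The lists of imprinted and of immune-linked lincRNAs held 0 of the 286 genes. Nearest protein-coding genes were taken by the distance between gene bounds in the deposited table. Depth was 20907113 to 71035301 counts, at which 50 counts set the lower limit of what was described.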

Additional observations from a re-analysis of the deposited data

Results flagged for a closer look

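Single libraries stood apart from the rest of their group for some genes. Gm16548 had 593 normalized counts in Aged Bleo 2 and 184 to 243 in the other libraries of that group. Gm20603 had 3569 normalized counts in Young Bleo 20 and 1537 to 1733 in the other libraries of that group. Gm26811 had 491 normalized counts in Young Bleo 20 and 121 to 176 in the other libraries of that group. Gm26857 had 1653 normalized counts in Young Sham 23 and 945 to 1091 in the other libraries of that group. RP23-456B9.23 had 68.3 normalized counts in Young Bleo 19 and 39.9 to 42.6 in the other libraries of that group. A library counted as apart when its gap to the nearest other, divided by the range of the group, passed Dixon's 95% critical value. Of 858 pairs of a lincRNA and a group of 4 or 5 libraries 47 (5.48%) passed it, and chance alone passes about 1 in 20.

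The response to bleomycin differed between aged and young mice by the test of the difference itself for 3 genes. The log2 difference, aged minus young, was 3.04 ± 0.70 for Mir143hg (adjusted p = 0.012, edgeR adjusted p = 0.336), 0.94 ± 0.23 for Neat1 (adjusted p = 0.0241, edgeR adjusted p = 0.336) and 0.83 ± 0.21 for Fendrr (adjusted p = 0.0267, edgeR adjusted p = 0.35). Each of the 3 was called by DESeq2 and not by edgeR, and without Aged Sham 14 each missed the adjusted p threshold with log2 differences of 2.78, 0.87 and 0.75. Mir143hg met the count rule only with the Young Sham libraries, where it was high.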

How the results depend on the processing

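Counts of called lincRNAs moved by less than 1.5 times in all 6 contrasts with TMM-based size factors, with a filter of 10 counts in 3 libraries, and without the Cook's distance filter. The edgeR test gave 2 in Aged Sham vs Young Sham, 1 in Aged Bleo vs Aged Sham, 0 in Aged Bleo vs Young Bleo, 14 in Aged Bleo vs Young Sham and 0 in the aged minus young contrast, and limma voom 1 in Aged Sham vs Young Sham, 26 in Young Bleo vs Young Sham, 0 in Aged Bleo vs Aged Sham, 1 in Aged Bleo vs Young Bleo, 13 in Aged Bleo vs Young Sham and 0 in the aged minus young contrast. DESeq2 on the compared groups alone gave 15 in Aged Sham vs Young Sham and is not defined for the aged minus young contrast. On log2(FPKM + 0.1) limma-trend gave 5 in Aged Sham vs Young Sham, 4 in Aged Bleo vs Aged Sham, 0 in Aged Bleo vs Young Bleo, 17 in Aged Bleo vs Young Sham and 0 in the aged minus young contrast, and on log2(FPKM + 1) 4 in Aged Sham vs Young Sham, 29 in Young Bleo vs Young Sham, 4 in Aged Bleo vs Aged Sham, 1 in Aged Bleo vs Young Bleo, 13 in Aged Bleo vs Young Sham and 0 in the aged minus young contrast. An alternative chosen after seeing the data left out Young Bleo 18 and Aged Bleo 1 together and gave 5 in Aged Bleo vs Aged Sham and 13 in Aged Bleo vs Young Sham. Leaving out 1 library at a time gave 7 to 12 in Aged Sham vs Young Sham, 33 to 60 in Young Bleo vs Young Sham, 5 to 28 in Aged Bleo vs Aged Sham, 1 to 9 in Aged Bleo vs Young Bleo, 13 to 34 in Aged Bleo vs Young Sham and 0 to 6 in the aged minus young contrast. The cause was not tested for any of these. For named calls 834 of 1102 alternatives kept the call, 268 lost it and 0 turned its direction. No paired analysis was possible because the title numbers do not repeat between groups. Low counts and 3 to 5 libraries per group limit what could be called.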
